A study of Rattus norvegicus with 145 samples.

Results

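Acute-phase plasma proteins are secreted by hepatocytes, and their genes were examined here in the livers of rats given acetamide, a food contaminant, by gavage. The 10 genes A2m, A1i3, Orm1, Hp, Crp, Fga, Fgb, Fgg, Itih3 and Itih4 were taken by symbol from the 17337 genes listed in all 5 tables of read counts. The 145 rats formed 29 groups of 5. Experiment A used Hsd:WI males aged 9 to 10 weeks, dosed with vehicle or with 30, 100, 300 and 1000 mkd (mg per kg body weight per day) for 7 days. Experiment B used Crl:WI males and females aged 8 to 10 weeks, which received 0, 300, 500, 750, 1000 or 1500 mkd for 7 or 28 days. Controls in every data set were gavaged with the water vehicle alone, all rats were fasted overnight, and left liver lobes were collected on day 8 or day 29. Experiment, strain label, sex and duration each coincided with a count table, so a difference between tables cannot be told apart from a difference between these factors. All values below are CPM, the read count of a gene relative to all reads on genes in its library, scaled within each data set with TMM factors, and each library was 1 rat.

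During an acute-phase response, interleukin-6 (IL-6) and interleukin-1 released by macrophages act on hepatocytes through STAT3, C/EBP and NF-kappaB factors and change the mix of proteins secreted into plasma. Most of the 10 genes encode positive reactants, whose plasma level goes up in inflammation. A1i3, alpha-1-inhibitor 3, is a plasma protease inhibitor of the alpha-2-macroglobulin family that goes down in the inflamed rat, while A2m is the classical strongly induced reactant of this species.

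The 145 libraries held 15449716 to 39986531 reads on genes, and TMM factors ran from 0.735 to 1.91. TMM made a difference here, since scaling by library size alone moved the median log2 fold change of all genes at the highest dose from near 0 to 0.58 in experiment A, and to 0.13 (day-8 males), 0.22 (day-29 males), 0.22 (day-8 females) and 0.42 (day-29 females) in experiment B. All 10 hepatocyte markers were detected in each data set. Their summed level was 249307 to 333310 CPM in the vehicle rats of experiment A and 74310 to 243716 CPM at 1000 mkd, with no overlap. The day-29 male number 3 at 1500 mkd stood apart, with the lowest value of its group for A1i3, Crp, Fga, Fgb, Fgg, Hp, Itih3 and Itih4 and a TMM factor of 1.49. By its title it is the rat that the paper reports as an outlier in Ki67 labelling, a measure of cell proliferation. The paper left it out of its benchmark dose modelling of that measure. In whole liver, fewer cells of a type and less RNA per cell cannot be told apart. A gene was called when it differed from vehicle by at least 1.5-fold with an adjusted p of at most 0.05 (edgeR quasi-likelihood test, Benjamini-Hochberg over all genes tested).

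The regions just upstream of the fibrinogen genes and Itih4 are shown, the 4 acute-phase genes in which a match to the motifs named next was found. Itih3, the neighbour of Itih4, had no match and is not shown. Matches to 2 motifs of the IL-6 pathway are in capitals, the type II IL-6 response element CTGGGAA and the STAT site TTCNNNGAA, both searched on both strands. Each line gives the 250 bases before the annotated start in RefSeq (build GRCr8), read 5′ to 3′ on the strand of the gene.
Fga, chr2:170671919-170672168, plus strand: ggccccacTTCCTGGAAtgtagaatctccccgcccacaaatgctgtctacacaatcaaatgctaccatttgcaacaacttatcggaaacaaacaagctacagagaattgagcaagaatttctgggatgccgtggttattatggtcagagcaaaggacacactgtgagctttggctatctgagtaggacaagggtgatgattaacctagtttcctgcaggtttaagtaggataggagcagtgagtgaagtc
Fgb, chr2:170700876-170701125, minus strand: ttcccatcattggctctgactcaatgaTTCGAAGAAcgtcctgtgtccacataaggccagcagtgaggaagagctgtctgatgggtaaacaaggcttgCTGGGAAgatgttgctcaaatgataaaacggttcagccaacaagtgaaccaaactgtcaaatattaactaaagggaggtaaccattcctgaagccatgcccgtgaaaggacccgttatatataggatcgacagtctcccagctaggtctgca
Fgg, chr2:170652833-170653082, plus strand: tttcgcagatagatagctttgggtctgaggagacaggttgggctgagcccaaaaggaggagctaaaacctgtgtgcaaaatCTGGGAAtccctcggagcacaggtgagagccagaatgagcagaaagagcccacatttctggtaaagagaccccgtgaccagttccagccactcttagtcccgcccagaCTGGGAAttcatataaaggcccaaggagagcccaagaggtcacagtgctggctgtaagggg
Itih4, chr16:6086735-6086984, plus strand: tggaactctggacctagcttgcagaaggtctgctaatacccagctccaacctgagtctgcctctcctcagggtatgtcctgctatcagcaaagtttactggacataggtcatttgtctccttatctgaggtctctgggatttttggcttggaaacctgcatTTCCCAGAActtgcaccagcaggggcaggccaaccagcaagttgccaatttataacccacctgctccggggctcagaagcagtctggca
Positions are those of the first base of a match, with -1 the base before the start. Fgg held CTGGGAA at -169 and at -61. Fgb held it at -152 and the STAT motif, as TTCGAAGAA, at -223. Fga held the STAT motif, as TTCCTGGAA, at -242, outside the window of the other annotated Fga start. In Itih4 the 2 motifs overlapped at -89, with CTGGGAA on the opposite strand. Neither motif was found in this window for Crp, Itih3 or Orm1. Of 33469 upstream regions of the same length, 9.56% held CTGGGAA and 7.67% held TTCNNNGAA, and a match is a description, not a shown binding site. The motif TTGCNNAA was also searched and is not marked here. It matched in Fga, Fgb, Itih4 and Orm1, and in 9.22% of the upstream regions. The table of RefSeq promoters used here had an entry under the own symbol of 7 of the 10 genes. A1i3 appeared as an older name of both Mug1 and Mug1l1, 2 neighbouring murinoglobulin genes, and A2m and Hp were not matched in this table. Neither CTGGGAA nor TTCNNNGAA was found in the same window of Mug1 or Mug1l1.

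Of the protease inhibitors, A2m encodes alpha-2-macroglobulin and had 0 reads in each of the 145 rats, controls and dosed rats alike. A total of 4025906645 reads on genes was counted over these rats, and the limit that a count of 0 allows was 0.0527 to 0.205 CPM per library on the TMM scale (3 counts, counting error only). A2m was 1 of 2073 genes at 0 in all rats, and whether the annotation used for counting covered its transcript was not tested. The other 9 genes passed the low-count filter in every data set.

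A1i3 was lower at the highest dose in all 5 data sets, by 2.11- to 4.11-fold, and this was called in 3 of them. In experiment A the vehicle males had 3322, 4072, 4510, 5430 and 3449 CPM of A1i3, and the males at 1000 mkd had 1458, 393, 2112, 529 and 569 CPM. Every dosed male lay below every control, which was so for 7.22% of all genes. The log2 fold change was -2.04 ± 0.39 (SE, n = 5 per group; edgeR adjusted p = 0.000764).
On day 29 in experiment B, A1i3 in vehicle males was 6712, 7056, 7222, 8711 and 3029 CPM against 1341, 2371, 682, 1596 and 2901 CPM at 1500 mkd. The lowest control was number 5, and it was still above all dosed males, a separation seen for 3.95% of all genes. This was a log2 fold change of -1.88 ± 0.42 (edgeR adjusted p = 0.0122), and leaving out any 1 of the 10 rats gave -2.19 to -1.74 with the call kept. Vehicle females of day 29 varied more, with 1278, 2478, 900, 5315 and 4884 CPM, and the 1500 mkd females had 1179, 235, 848, 1171 and 502 CPM. The ranges of the females overlapped. Their log2 fold change was -1.92 ± 0.57 (edgeR adjusted p = 0.018), and the call was lost without control 4 (-1.63, edgeR adjusted p = 0.0542), control 5 (-1.64, 0.0611) or the dosed female 2 (-1.67, 0.0657), and with only the vehicle and 1500 mkd groups in the fit (-1.93, 0.0625).
On day 8 in experiment B the males had 5613, 5113, 6006, 5961 and 7257 CPM of A1i3 with vehicle and 1521, 1223, 3188, 1357 and 6876 CPM at 1500 mkd. Male 5 of the dosed group sat within the control range and the other 4 were below it. The log2 fold change of -1.08 ± 0.36 was not called (edgeR adjusted p = 0.175), and without male 5 it was -1.72 and called (0.0287). Day-8 females had 2941, 3961, 5925, 5118 and 4311 CPM with vehicle, 1354, 2365, 2020, 1563 and 655 CPM at 1000 mkd, and 1817, 1577, 2028, 1729 and 1858 CPM at 1500 mkd. All dosed females of 750, 1000 and 1500 mkd lay below every control, as was so for 1.5%, 1.47% and 1.06% of all genes at these doses. The change was called at 1000 mkd (-1.48 ± 0.38, edgeR adjusted p = 0.0421) and not at 1500 mkd (-1.30 ± 0.38, 0.0831), where DESeq2 (-1.31, adjusted p = 0.0219) and edgeR on the vehicle and 1500 mkd groups alone (-1.30, 0.0297) called it.
With all dose groups in the fit, A1i3 had a negative slope with an adjusted p of at most 0.05 in all 5 data sets, the one gene of the 9 for which this held. The slope per 1000 mkd was -2.21 on the log2 scale in experiment A (edgeR adjusted p = 2.65e-05). In experiment B it was -0.88 in day-8 males (0.0235), -1.37 in day-29 males (0.000354), -0.89 in day-8 females (0.0187) and -1.20 in day-29 females (0.00483). The day-8 male slope missed the threshold without male 1, 2 or 4 of the 1500 mkd group (adjusted p = 0.0546, 0.0577 and 0.0598). Without the whole highest dose group, the A1i3 slope did not pass in experiment A or in day-8 males. At 300 mkd in experiment A the 5 males had 1937 to 6304 CPM and A1i3 was not called at this or a lower dose.

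The level relative to albumin, the main hepatocyte plasma protein, depends on no scaling factor. The log2 ratio of A1i3 to Alb at the highest dose differed from that in the vehicle group by -1.29 (experiment A), -1.26 (day-8 males), -1.52 (day-29 males), -0.91 (day-8 females) and -0.83 (day-29 females). In experiment A and in the day-29 males all 5 dosed rats were below all 5 controls on this ratio. It was chosen after seeing the data, and how many gene pairs separate in this way was not tested. Under scaling by library size alone A1i3 kept its direction in all 5 data sets and its call in the same 3.
Of the 5 tested genes of the alpha-2-macroglobulin family (A1i3 itself, Mug1, Mug2, Pzp and Cpamd8), 5 were called lower in experiment A, 2 in day-29 males and 4 in day-29 females, against 7.45%, 1.76% and 3.54% of all genes called lower. On day 8 in experiment B their median log2 fold change was -0.63 in males and -0.61 in females, with no call by edgeR (DESeq2 called A1i3 in females, as above). Mug1, a murinoglobulin, had log2 fold changes of -1.37 ± 0.28 in experiment A (edgeR adjusted p = 0.00106) and -1.13 ± 0.31 in day-29 females (0.0111). Pzp, pregnancy zone protein, had -1.39 ± 0.27 (0.000772), -1.07 ± 0.24 (0.00313) and, in day-29 males, -0.76 ± 0.21 (0.0264), which missed the threshold without control 1 (-0.72, 0.0518) or 2 (-0.79, 0.0521). These genes are similar in sequence, so counting could have moved reads between A1i3 and Mug1, and their separate values are uncertain to that extent.

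Itih3 and Itih4 encode heavy chains of the inter-alpha-trypsin inhibitor family, which bind hyaluronan or circulate free, and their starts lie 36.4 kb apart. Itih4 was lower at the highest dose in all 5 data sets, and called in experiment A and in females on both days. In day-8 females the vehicle group had 11623, 9332, 10245, 10263 and 9022 CPM of Itih4. The 300 mkd females had 5492, 5733, 7405, 6543 and 6679 CPM, and the 1500 mkd females had 7579, 3783, 3479, 5257 and 5275 CPM. Every dosed female of the 5 dose groups, down to the lowest dose, was below every vehicle female. All dose groups were compared with the same 5 vehicle females, so these separations are not independent of each other. Over all genes, 0.252% at 300 mkd and 0.626% at 500 mkd had all dosed females below all controls.
The log2 fold change of Itih4 in these females was -0.99 ± 0.22 at 1500 mkd (edgeR adjusted p = 0.038) and -0.83 ± 0.22 at 1000 mkd (0.0486). Both calls were close to the threshold. The one at 1500 mkd was lost in 8 of the 10 fits that left out 1 rat, with adjusted p of up to 0.143 and log2 fold changes of -1.17 to -0.88 over all 10. The changes at 300, 500 and 750 mkd were not called, with 0.00870, 0.0174 and 0.0174% of all genes called at these doses.
In experiment A, Itih4 was 5367, 5484, 4950, 5674 and 4467 CPM in controls and 3844, 1895, 3312, 2648 and 2574 CPM at 1000 mkd, without overlap (-0.86 ± 0.17, edgeR adjusted p = 0.000838). There, 7.22% of all genes had every dosed male below every control. Day-29 females had 9503, 7793, 5320, 11168 and 7221 CPM with vehicle and 4549, 2282, 3866, 5489 and 6581 CPM at 1500 mkd. These groups overlapped, and the change was -0.85 ± 0.22 (edgeR adjusted p = 0.00871), called in each of the 10 fits without 1 rat but not with only the vehicle and 1500 mkd groups in the fit (-0.86, 0.0939), where the day-8 call at 1500 mkd was also lost (-0.98, 0.0774). In males of experiment B the change of Itih4 at 1500 mkd was -0.30 ± 0.18 on day 8 and -0.39 ± 0.19 on day 29, neither of them called.
Itih3 passed the adjusted p but stayed under the 1.5-fold limit in experiment A (-0.43 ± 0.16, edgeR adjusted p = 0.0466) and in day-29 females (-0.45 ± 0.13, 0.0132). In day-29 females Itih3 was 6723, 6097, 5486, 6544 and 4830 CPM with vehicle and 4284, 3333, 4031, 4802 and 5332 CPM at 1500 mkd. Only 1 dosed female reached the control range. With library size as the only scaling, Itih3 at 1000 mkd in experiment A was 0.087, of the opposite sign, while Itih4 was -0.35, under the 1.5-fold limit and so not called. In day-29 females Itih4 was -0.46 with this scaling, again not called. The log2 ratio of Itih4 to Itih3 within a library differed at the highest dose by -0.45 in experiment A, by -0.25 and -0.26 in males of experiment B on day 8 and day 29, by -0.68 in day-8 females and by -0.44 in day-29 females. All 5 day-8 females at 1500 mkd were below all 5 controls on this ratio, which was chosen after seeing the data. How many gene pairs separate in this way was not tested.

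Itih4 also differed between the sexes without acetamide. The day-8 vehicle females in this comparison are the same rats as in the dose comparisons above. With all 120 rats of experiment B scaled together, vehicle females of day 8 had 9414 ± 924 CPM (SD, n = 5) and vehicle males 4787 ± 1492 CPM, and 5 of 5 females were above all males (log2 difference 0.98 ± 0.21 SE, edgeR adjusted p = 0.000241). How many of all genes separate the sexes in this way was not tested. On day 29 the values were 8046 ± 2181 and 5172 ± 2046 CPM (0.64 ± 0.21, adjusted p = 0.0193), with 2 of 5 females above all males. A1i3 went the other way on day 29, with 2910 ± 1986 CPM in vehicle females and 6979 ± 2298 CPM in vehicle males (-1.26 ± 0.46, edgeR adjusted p = 0.0403), and had -0.60 ± 0.45 on day 8 (0.47). Of all genes, 8.00% on day 8 and 12.1% on day 29 differed between the sexes in vehicle rats, against 1 and 2 of the 9 acute-phase genes. The day-29 differences were not stable. A1i3 missed the threshold without number 1, 2 or 3 of each sex (adjusted p = 0.134, 0.0988 and 0.206), and Itih4 without number 2, 4 or 5 (0.0614, 0.178 and 0.0786). Between day 8 and day 29, edgeR called 0 of the 9 genes in vehicle rats of either sex (0 at an unadjusted p under 0.05, and 0 with DESeq2), with 0.0169% of all genes called in males and 1.25% in females.

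Fga, Fgb and Fgg encode the 3 chains of fibrinogen, the clotting protein, and start within 47.8 kb on chromosome 2, Fgg first, Fga 19.1 kb on and Fgb 28.7 kb further, the last on the opposite strand. All 3 were called lower at 1000 mkd in experiment A and none in males of experiment B. Fgg in experiment A was 6368, 9010, 6254, 11783 and 7146 CPM with vehicle and 4102, 2568, 5329, 3862 and 3279 CPM at 1000 mkd, with no overlap (-1.08 ± 0.23, edgeR adjusted p = 0.00151). Fgb likewise did not overlap, with 7413, 7996, 6626, 11228 and 5873 CPM against 4657, 3791, 5838, 4981 and 3700 CPM (-0.77 ± 0.17, 0.00202). The nearest rats of the 2 groups were close, at 5873 and 5838 CPM. Of all genes, 7.22% had every dosed male below every control in experiment A.
Fga was 7360, 7745, 6869, 12841 and 5892 CPM with vehicle and 4713, 3460, 6076, 4896 and 3883 CPM at 1000 mkd, where 1 dosed rat exceeded the lowest control (-0.82 ± 0.19, edgeR adjusted p = 0.00242). With only these 2 groups in the fit Fga was not called (-0.82, 0.0511). Under library size alone the decreases of Fga, Fgb and Fgg in experiment A were -0.29, -0.22 and -0.56, and none was called. In day-29 females only Fgg was called, with 5917, 5026, 3613, 6236 and 8862 CPM with vehicle and 3601, 2870, 3289, 3843 and 5537 CPM at 1500 mkd. The groups overlapped (-0.63 ± 0.19, edgeR adjusted p = 0.0205). This call was lost without control 5 (-0.43, 0.114) or the dosed females 2 (-0.55, 0.0761) or 3 (-0.59, 0.0552). Fga and Fgb in the same females had -0.38 ± 0.16 and -0.30 ± 0.18, and 0.041 and 0.12 under library size alone.
Day-8 females were lowest at 750 mkd rather than at 1500 mkd. Fgg there was 3853, 4005, 4696, 3585 and 3272 CPM against 9250, 10006, 4998, 5820 and 5529 CPM with vehicle. Fga was 4057, 4624, 5541, 4073 and 3604 CPM against 9392, 12212, 6068, 6576 and 5746 CPM. Neither gene overlapped with its controls at 750 mkd, where 1.5% of all genes had every dosed female below every control. The changes of -0.88 ± 0.21 and -0.87 ± 0.20 were not called (edgeR adjusted p = 0.0656 and 0.0597). The separation at this dose was not particular to fibrinogen. A1i3, Crp and Itih4 were also below all controls in these females, while Fgb overlapped with its controls.

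**Figure D1:**
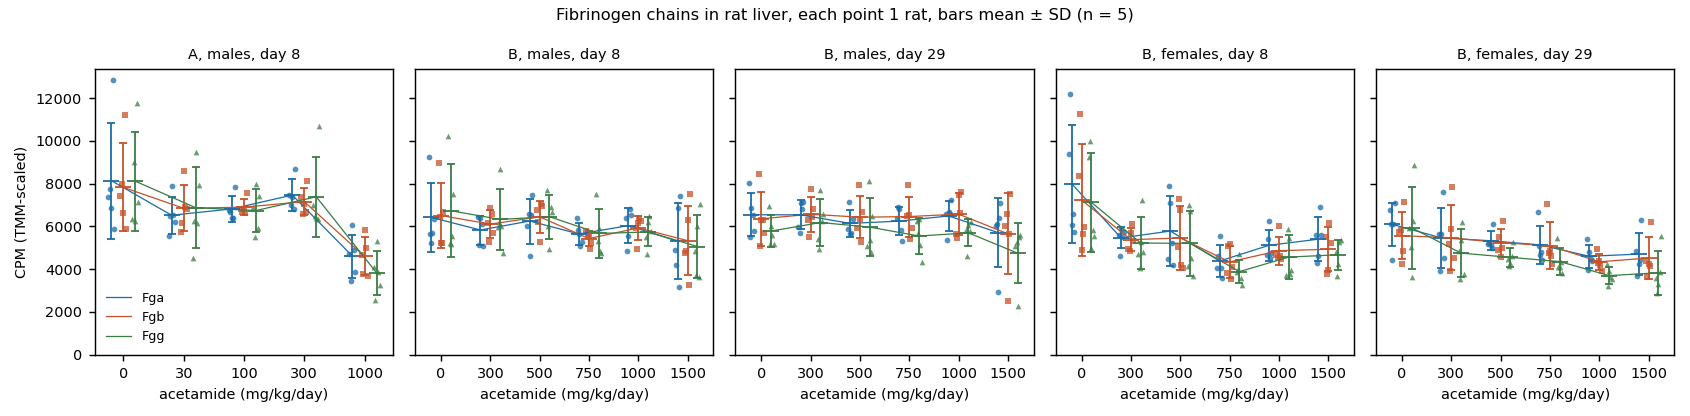
The fibrinogen chain genes Fga, Fgb and Fgg in each rat by dose. Points are single rats (y axis, TMM-scaled CPM; x axis, acetamide in mg/kg/day as ordered groups), bars are mean ± SD (n = 5) and lines join group means. In experiment A the Fgg mean goes from 8112 to 3828 CPM, while in day-29 males it goes from 5781 to 4744 CPM at 1500 mkd.

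The 3 chain genes kept close proportions. Over the rats of a data set Spearman's rho between Fga and Fgb was 0.83 to 0.94 (mean 0.88 over 5 data sets), between Fgb and Fgg 0.80 to 0.90 and between Fga and Fgg 0.75 to 0.94, all points in a data set sharing the scaling and the dose groups. The log2 ratio of Fgb to Fga at the highest dose differed from that in the vehicle group by -0.00 to 0.08 over the 5 data sets. The ratio of Fgg to Fga differed by -0.29 in experiment A, with 3 of 5 dosed rats below all controls, and by -0.23 in day-29 females, also 3 of 5.

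Crp encodes C-reactive protein, a pentraxin that binds phosphocholine and is abundant in the plasma of healthy rats. It was called lower in experiment A and in day-29 females. In day-8 females at 750 mkd Crp was not called, though every dosed female lay below every control (3072 to 4977 against 5214 to 8647 CPM). Experiment A controls had 3392, 3701, 3745, 5577 and 5856 CPM of Crp and the 1000 mkd males 2198, 1358, 3018, 2049 and 2276 CPM. These did not overlap (-1.03 ± 0.24, edgeR adjusted p = 0.00284), and 7.22% of all genes had every dosed male below every control. Day-29 females had 5350, 4927, 3359, 9036 and 10602 CPM with vehicle and 3400, 2222, 3672, 4257 and 4451 CPM at 1500 mkd. Here just 1 dosed female was below all controls, and controls 4 and 5 were far above the rest. The change was -0.89 ± 0.26 (edgeR adjusted p = 0.0192), and it was not called without control 4 (-0.78, 0.0558), control 5 (-0.64, 0.102) or the dosed female 2 (-0.75, 0.077). Day-29 males had a Crp slope of -0.38 per 1000 mkd (edgeR adjusted p = 0.0453), which missed the threshold without control 2 (0.0574) or the 1500 mkd males 1 (0.0558) or 2 (0.0588).

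Hp and Orm1 encode haptoglobin, which binds free haemoglobin, and alpha-1-acid glycoprotein, a drug-binding plasma protein strongly induced by IL-1 and glucocorticoids. Neither was called by edgeR in any dose comparison with TMM scaling and all rats and groups in the fit. Hp in experiment A was 13394, 17794, 13116, 17444 and 13656 CPM with vehicle and 12687, 7052, 14610, 10107 and 10689 CPM at 1000 mkd (-0.45 ± 0.20, edgeR adjusted p = 0.0814). Its sign was not the same everywhere, with 0.15 ± 0.17 in day-29 males at 1500 mkd and, under library size alone, 0.065 in experiment A.
Orm1 was the one gene of the 9 with a positive change at the highest dose in 4 of the 5 data sets. Its values in day-29 females were 399, 262, 349, 283 and 295 CPM with vehicle and 327, 1201, 700, 310 and 674 CPM at 1500 mkd. Females 2, 3 and 5 of the dosed group were above all controls, and the change was 1.02 ± 0.38 (edgeR adjusted p = 0.0575). DESeq2 called it (1.00, adjusted p = 0.0354), as did edgeR without the dosed female 1 (1.18, 0.0358) or 4 (1.19, 0.0275). The slope of Orm1 in these females was 0.66 per 1000 mkd (edgeR adjusted p = 0.0384) and rested on few rats, since without the dosed female 2 it was 0.43 (0.23). It was also lost without controls 2, 4 or 5 or the dosed females 3 or 5 (adjusted p of 0.0507 to 0.0791).
In day-29 males Orm1 was 334, 304, 183, 414 and 205 CPM with vehicle and 460, 412, 525, 396 and 359 CPM at 1500 mkd (0.58 ± 0.25, edgeR adjusted p = 0.135). In experiment A it was 329, 448, 346, 512 and 201 CPM with vehicle and 346, 453, 427, 498 and 722 CPM at 1000 mkd (0.41 ± 0.29, 0.289). Both pairs of groups overlapped. Under library size alone Orm1 was called in experiment A (1.03, edgeR adjusted p = 0.00458), day-29 males (0.79, 0.0429) and day-29 females (1.5, 0.00639). The median of all genes was then 0.58, 0.22 and 0.42, and 46.7%, 6.31% and 29.9% of all genes were called. This scaling shifts all genes together, and these calls of Orm1 are not separate evidence of a change. The log2 ratio of Orm1 to Hp in the same library differed at the highest dose by 0.92 in experiment A, -0.062 in day-8 males, 0.47 in day-29 males, 0.17 in day-8 females and 1.12 in day-29 females. All 5 dosed rats were above all 5 controls in the day-29 females and 3 of 5 in experiment A. This ratio, too, was chosen after seeing the data, and how many gene pairs separate in this way was not tested.

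At 1000 mkd in experiment A, 6 of the 9 tested genes were called lower (A1i3, Crp, Fga, Fgb, Fgg and Itih4) and 0 higher, while 21.4% of all genes were called, 14.0% up and 7.45% down. Their median log2 fold change was -0.82, against 0.00 over all genes. With library size as the only scaling 2 genes were called, A1i3 lower and Orm1 higher, and 46.7% of all genes. At the lower doses of experiment A edgeR called 0 of 27 tests of these genes, with 0 at an unadjusted p under 0.05, 0 with DESeq2 and 0.00% of all genes called.
In experiment B at 1500 mkd, day-29 females had 4 genes called lower (A1i3, Crp, Fgg and Itih4), with 13.1% of all genes called and 3.54% called lower. Under library size alone the 2 calls there were again A1i3 lower and Orm1 higher, with 29.9% of all genes called, and with only the vehicle and 1500 mkd groups in the fit there was no call by edgeR (Crp -0.90, adjusted p = 0.106; Fgg -0.64, 0.145). Day-29 males had 1 gene called (A1i3), with 4.91% of all genes called. Day-8 females had 1 at 1500 mkd (Itih4, with 0.705% of all genes called and 0.183% called lower) and 2 at 1000 mkd (A1i3 and Itih4, with 1.37% and 0.348%). Day-8 males had 0 calls of edgeR, with 2 genes at an unadjusted p under 0.05, 0 calls of DESeq2 and 0.177% of all genes called. The 5 top-dose medians of the 9 genes ran from -0.82 to -0.20, and those of all genes from -0.00 to 0.07. Doses within a data set share their vehicle rats.

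**Figure D2:**
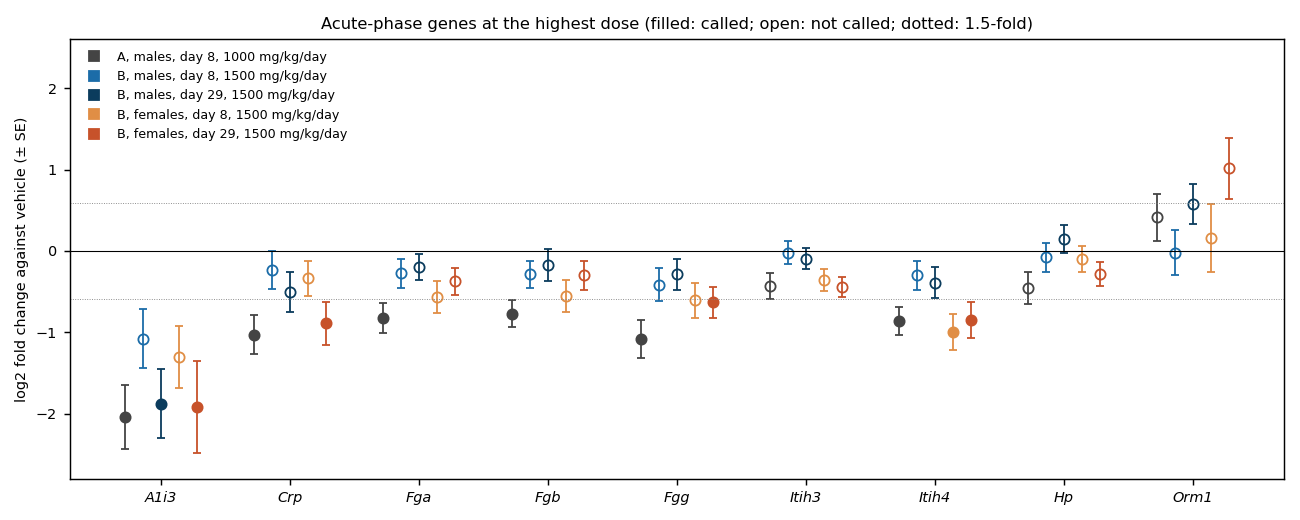
Log2 fold change (y axis, ± SE, n = 5 rats per group) of the 9 tested genes (x axis) at the highest dose of each data set, filled where called and open where not, with dotted lines at 1.5-fold. A1i3 is the lowest point set, from -2.04 to -1.08, and Orm1 reaches 1.02 in day-29 females.

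At the lower doses of experiment B, edgeR called 0 of 36 tests in day-8 males (0 at an unadjusted p under 0.05, 0 with DESeq2, 0.00% of all genes at each dose). It called 0 of 36 in day-29 males (5 unadjusted, 2 with DESeq2), with 0.00, 0.00, 0.780 and 2.76% of all genes called at 300, 500, 750 and 1000 mkd. A1i3 at 1000 mkd was 2.64-fold lower and just missed (-1.40 ± 0.42, edgeR adjusted p = 0.0509). In day-29 females it called 0 of 36 (11 unadjusted, 1 with DESeq2), with 0.00, 0.0349, 0.183 and 1.59% of all genes called at these doses. Without 1 rat, 1 gene was called at lower doses in day-29 males (controls 1 or 5, 1000 mkd males 1 or 4) and in day-29 females (controls 2 or 3). Day-8 females had the 2 calls at 1000 mkd and 22 of 36 tests at an unadjusted p under 0.05, with 8 called by DESeq2. Both edgeR calls were lost without any 1 of the 5 controls or without 1000 mkd female 1, 4 or 5, 1 call was left without female 2, and 4 were made without 750 mkd female 2.
The slope on dose, with no fold limit, was negative with an adjusted p of at most 0.05 in experiment A for 7 of the 9 genes, Hp and Orm1 being the others, against 22.4% of all genes. Day-29 females had 6 negative slopes (A1i3, Crp, Fga, Fgg, Itih3 and Itih4; 11.9% of all genes) and the positive one of Orm1 (15.4%). Day-29 males had 2, A1i3 and Crp (10.6%). Day-8 females had 2, A1i3 and Itih4 (1.69%), and day-8 males had 1, A1i3 (0.540%). Without the highest dose group, the slopes of experiment A and of day-8 males did not pass. Under library size alone the slopes of Itih3 in experiment A (0.13) and of Fga in day-29 females (0.021) had the opposite sign, and neither passed. Those of Fga and Fgb in experiment A and of Fgg and Itih3 in day-29 females stayed negative and no longer passed, while Orm1, under a scaling that shifted the median of all genes upward, had a positive slope that passed in experiment A (1.08, edgeR adjusted p = 0.000154), day-29 males (0.50, 0.012) and day-29 females. Hp passed in day-29 males (0.30, 0.0147). The strongest slope of Itih4 was -0.80 per 1000 mkd in experiment A (edgeR adjusted p = 0.000144), and in day-8 females it was -0.57 (0.0163). Without 1 rat the slope of Itih3 in experiment A missed the threshold in 3 of 10 fits (1000 mkd males 2, 4 or 5; adjusted p of 0.0504 to 0.0707) and that of Fga in day-29 females in 5 of 10 (controls 1 or 5, dosed females 2, 3 or 4; 0.052 to 0.0984). The slopes of Hp in experiment A (without 1000 mkd male 1 or 3), of Fgg in day-8 females (without 1500 mkd female 5) and of Fgb in day-29 females (without control 3 or 4 or dosed female 5) passed it only then.

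Whether the response itself differed was tested with interaction terms, and edgeR placed 0 of 45 past the threshold. Between the sexes on day 8 (0.00% of all genes), the difference in the response of Itih4, females minus males, was -0.69 ± 0.29 (unadjusted p = 0.0188 by edgeR, adjusted p = 0.997), the only one of the 9 at an unadjusted p under 0.05, and DESeq2 called 0. On day 29 (0.466%) and between durations in males (0.00%) and in females (0.0169%), 0 of 9 had an unadjusted p under 0.05 and DESeq2 called 0.
For the males of experiment A and experiment B at 1000 mkd on day 8, none of the 9 differences passed the threshold with edgeR. A1i3 had a log2 fold change of -2.06 in A and -0.64 in B, a difference of -1.42 ± 0.54 (edgeR adjusted p = 0.089). Crp had a difference of -0.96 ± 0.34 (0.069) and Fga of -0.75 ± 0.26 (0.0644). Fgg (-0.87), Fgb (-0.65), Itih4 (-0.67) and Itih3 (-0.56) also had an unadjusted p under 0.05, which makes 7 of 9 genes, with 7.48% of all genes called. DESeq2 called 4 of them (Crp, Fga, Fgb and Fgg). Without the rats numbered 1, edgeR called 3 (Fga, Fgg and Itih4), and without those numbered 3 it called 2 (Crp and Itih3).

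Other genes of the response were read from lists of known reactants and regulators. Of 27 other positive acute-phase genes tested in experiment A, 12 were called lower and 3 higher at 1000 mkd (median -0.55), against 7.45% of all genes lower and 14.0% higher. In day-29 females 6 were lower and 2 higher (median -0.27), against 3.54% and 9.55%. Apcs, serum amyloid P component, was lower in both (-1.04 and -0.73), as were Cfb, complement factor B (-0.68 and -0.63), and Fgl1, a fibrinogen-like hepatokine (-1.17 and -1.68). The metallothioneins Mt1a and Mt2A, zinc-binding proteins, had -1.98 and -2.39 in experiment A. Timp1, an inhibitor of matrix metalloproteases, rose from 3.17 to 6.00 CPM in experiment A (0.92 ± 0.30, edgeR adjusted p = 0.0246), and had 0.97 in both day-29 data sets. The calls in day-29 females were lost for Apcs (-0.60, 0.0518) and Timp1 (0.57, 0.0641) without dosed female 2, and for Cfb without that female or control 5, at -0.58 and -0.55. The Timp1 call in experiment A was lost without controls 2, 3 or 4 or 1000 mkd male 2 (0.72 to 0.88), and in day-29 males without controls 2, 3 or 4 or 1500 mkd male 1 (0.79 to 0.97).
The 14 tested genes of negative reactants had 10 called lower and 0 higher in experiment A (median -0.72), and 3 lower and 1 higher in day-29 females (median -0.42), read against the same shares of all genes. Alb, albumin, had a log2 fold change of -0.91 ± 0.27 in experiment A (edgeR adjusted p = 0.0132) and -0.98 ± 0.26 in day-29 females (0.0103). In both data sets most called genes of the positive list and of the negative list were lower.
Among the IL-6 and STAT3 signalling genes, 4 were called higher and 1 lower of 16 tested in experiment A, and 1 and 1 of 17 in day-29 females. With 14.0% of all genes higher and 7.45% lower in experiment A, and 9.55% and 3.54% in day-29 females, the single calls are near what all genes showed. Il6r, the IL-6 receptor, was lower in experiment A (-0.99 ± 0.29, edgeR adjusted p = 0.0117). Socs1, a feedback inhibitor of cytokine receptors, rose there from 0.370 to 1.48 CPM (2.00 ± 0.50, 0.00452). Socs3, the feedback inhibitor of the IL-6 receptor, was not called (0.50 in experiment A and -0.63 in day-29 females). The transcript of Il6 itself was too scarce to be tested in any data set. Of the 14 acute-phase transcription factors tested in experiment A, 1 was called higher and 1 lower. In experiment A, 4 of 16 IL-1, TNF and NF-kappaB genes were called lower and 2 higher, and 1 of 10 glucocorticoid response genes lower.
Cell type markers moved in the same animals. In experiment A at 1000 mkd, 7 of 11 macrophage markers and 8 of 9 T and NK cell markers were called higher, and 4 of 10 hepatocyte markers and 2 of 4 erythroid markers lower, while 14.0% of all genes were called higher and 7.45% lower. In day-29 females 4 of 11 macrophage and 2 of 8 T and NK cell markers were higher, and 3 of 10 hepatocyte and 3 of 4 erythroid markers lower (9.55% and 3.54% of all genes). The summed macrophage markers were 611 to 1864 CPM with vehicle and 1527 to 2714 CPM at 1000 mkd, and in day-29 females 1162 to 1419 and 1323 to 2595 CPM. T and NK markers summed to 24.7 to 30.6 CPM and 42.6 to 78.0 CPM in experiment A. The 8 neutrophil markers, 1 of them at 0 in all rats in each group, summed to 2.84 to 9.57 CPM with vehicle and 1.45 to 2.24 CPM at 1000 mkd. The 4 erythroid markers summed to 170 to 257 CPM with vehicle and 18.4 to 89.7 CPM at 1000 mkd, with no overlap, and in day-29 females to 68.0 to 214 and 22.7 to 82.7 CPM. The part of these cells in the values of the acute-phase genes was not tested. As a share of all reads on genes, with no TMM factor, the 10 genes took 4.79 to 6.82% in experiment A controls and 4.25 to 4.77% at 1000 mkd.

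Outside the 9 genes themselves, those most alike in pattern to each were ranked by mean Spearman's rho over the 5 data sets (25 to 30 rats each, which share dose groups and scaling). For A1i3 they were Cpamd8, Mug1 and Pzp (rho 0.86, 0.85 and 0.85), all of its own family. Family genes are similar in sequence, and whether reads moved between them in counting was not tested. For Crp they were Ghr, Ttpa and Idh1 (0.85, 0.85 and 0.84), and for Fgg they were Cd302, Cpb2 and Cfb (0.81, 0.78 and 0.77). Itih3 was most like Itih1 (0.74), and Itih4 most like C3 (0.73). Hp and Orm1 had weaker neighbours, Sec11c (0.58) and Hist1h4b (0.49). Among the 9 genes, A1i3 and Crp had a mean rho of 0.73 and A1i3 and Orm1 of -0.27.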

How the data were processed

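Livers of 145 rats in 29 groups of 5 were profiled by RNA-Seq (TruSeq stranded mRNA, single-end reads). The authors trimmed reads with Trimmomatic, aligned them to Rn6 with Bowtie2 and counted them per gene with HTSeq. Versions are not given in the sources used here. The deposited values are raw read counts per gene, 1 table per experiment, sex and duration. HTSeq summary lines, which name no gene, entered neither library sizes nor tests (35.5 to 67.1% of the entries per library in experiment B). Samples of experiment B were grouped by title and those of experiment A by their dose label. Rats were numbered in order within a group, so in experiment A a number can differ from the one in the title. The day-29 control males carry the label of the other experiment, against their title and strain, and were kept in experiment B.

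Each table was fitted with edgeR 4.0.16 (R 4.3.3; TMM, filterByExpr, quasi-likelihood test, all groups of the table in 1 fit), with a contrast per dose and a slope on dose. All 24 groups of experiment B, or both day-8 male tables, were fitted together for interactions and vehicle comparisons. The script was tested on simulated data. Alternatives were DESeq2 1.42.0, DESeq2 size factors, other low-count filters, a replicate block, fewer groups, leaving out each rat and, chosen after seeing the data, library size alone as scaling and within-library ratios. Rats with the same replicate number did not deviate together (median correlation -0.02 to 0.03), so numbers only name rats.

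Genes named are the 10 acute-phase genes, listed genes called at the highest dose in at least 2 data sets, a set of regulators of STAT3 and C/EBP signalling, and the 3 most alike genes by Spearman's rho (log2 CPM, prior count of 2). The genes and lists were chosen with earlier results of these data known. Sequences are from RefSeq (GRCr8). The counts use Rn6, and no coordinates were converted. Levels of different genes were not compared, since transcript lengths were not used here. The limits given for A2m cover counting error only.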

Additional observations from a re-analysis of the deposited data

Results flagged for a closer look

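Of 90 groups of 5 rats examined (9 genes and 10 groups), 9 had a highest or lowest rat farther from the others than Dixon's 95% critical value allows, and chance puts about 1 in 20 groups there. In male number 3 at 1500 mkd on day 29, whose TMM factor was 1.49, 4 genes were far below the other rats of the group, Fga at 2917 CPM, Fgg at 2278 CPM, Itih3 at 3013 CPM and Itih4 at 1943 CPM. In the day-29 vehicle males, number 1 was far above the others for Hp (17993 CPM) and Itih4 (8230 CPM). The remaining values were Fga in vehicle male 4 of experiment A (12841 CPM), Fga in day-8 vehicle male 1 of experiment B (9242 CPM) and Crp in day-8 male 5 at 1500 mkd (7227 CPM). Male 5 was also the rat of its group with the highest A1i3.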

How the results depend on the processing

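The lowest level of any of the 9 tested genes was 91.1 CPM, or 2791 reads (Orm1 in day-8 male 4 at 1500 mkd), so each was counted in every rat. A2m can be bounded only by the limit that a count of 0 allows.

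The number of genes called moved by more than 1.5 times as follows. With library size alone, 2 genes were called in experiment A at 1000 mkd, 2 in day-29 males and 2 in day-29 females at 1500 mkd, and 4 slopes passed in day-29 males and 4 in day-29 females. Without the highest dose group, 0 slopes passed in experiment A, 0 in day-8 males, 4 in day-8 females and 1 in day-29 females. With only the vehicle and tested dose in the fit, 0 genes were called in day-29 females at 1500 mkd, and with only the groups of the contrast, 0 differed between the sexes in day-29 vehicle rats, where 1 differed with no low-count filter. At lower doses in day-29 males 1 call appeared with DESeq2 size factors, with no filter or with at least 10 counts in every rat, and 2 with DESeq2. In day-8 females the lower doses had 1 call with no filter, 0 with at least 10 counts in every rat and 8 with DESeq2, which also called 2 at 1500 mkd. DESeq2 called 1 at lower doses in day-29 females and 4 differences between experiments. The cause was not tested. Leaving out 1 rat or replicate number gave 0 to 1 calls at 1500 mkd and 0 to 1 slopes in day-8 males, 0 to 1 calls at lower doses and 1 to 2 slopes in day-29 males, 0 to 1 calls at 1500 mkd and 0 to 4 at lower doses in day-8 females, 1 to 5 calls at 1500 mkd and 0 to 1 at lower doses in day-29 females, 0 to 3 differences between experiments, and 0 to 1 sex differences in day-29 vehicle rats.

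Replicate numbers only name rats. As a replicate block they gave 0 calls at 1500 mkd and 1 at lower doses in day-8 females, 1 at lower doses in day-29 males and 3 differences between experiments, and they turned the Hp slope of day-8 males to 0.0047.

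Of the values that changed sign, 4 had passed the adjusted p of 0.05 with TMM and all groups, namely the fold change and slope of Itih3 and the slope of Fga in experiment A and the slope of Fga in day-29 females, and none of these passed it with the other sign. With library size alone the values that changed sign were, as log2 fold changes at the highest dose, Hp 0.065 and Itih3 0.087 in experiment A, Orm1 0.11, Hp 0.076 and Itih3 0.10 in day-8 males, Itih3 0.026 in day-29 males, Hp 0.13 in day-8 females, and Hp 0.15, Fga 0.041 and Fgb 0.12 in day-29 females. As slopes they were Hp 0.17 and Itih3 0.13 in experiment A, Hp 0.10 in day-8 males, Itih3 0.040 in day-29 males, and Hp 0.16, Fga 0.021 and Fgb 0.036 in day-29 females. Without the highest dose the slope was -0.62 for Orm1 and 0.042 for Fga in experiment A and -0.062 for Hp in day-8 females, where Hp had -0.00062 with DESeq2 size factors and -0.0011 with DESeq2. Leaving out 1 rat turned the sign in day-8 males (log2 fold changes from -0.20 to 0.20 for Orm1, from -0.23 to 0.18 for Hp, from -0.14 to 0.059 for Itih3; slopes from -0.044 to 0.15 for Orm1, from -0.079 to 0.10 for Hp, from -0.025 to 0.078 for Itih3) and in day-8 females (fold changes from -0.086 to 0.38 for Orm1, slopes from -0.038 to 0.060 for Hp).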
